A study of Homo sapiens with 12 samples.

Results

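FGF9 was overexpressed in HK2 cells kept in high glucose, and their transcriptome was set against that of HK2 cells in high glucose alone. HK2 is an immortalised line from human proximal tubule epithelium, and RNA of whole cultures was sequenced. The HG+OE-FGF9 group had 3 libraries from cells at 50 mM glucose that received an FGF9-overexpressing lentivirus vector with a lipid transfection reagent. The HG group had 3 libraries from cells at 50 mM glucose. The labels give a control vector to the normal glucose group (NG, 5.5 mM glucose) and none to HG, so effects of FGF9 and of vector and transfection cannot be told apart here. The series has 12 libraries in all, the others being 3 of NG and 3 of an FGF9 siRNA group (si-FGF9, 5.5 mM glucose). Genes were taken up when their level was at least 1 TPM (a transcript level corrected for transcript length and scaled to the library total) in at least 3 of these 6 libraries. This left 13169 of 62703 listed genes, 11244 of them protein-coding, and the protein-coding genes are described first and apart from small RNA genes.

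FGF9 is a secreted fibroblast growth factor that acts on neighbouring cells through receptor tyrosine kinases, with heparan sulfate proteoglycans as co-receptors. Receptor activation feeds the RAS-ERK and PI3K cascades and induces immediate early genes as well as feedback inhibitors such as Sprouty proteins and dual-specificity phosphatases. In kidney the factor is best known from nephron progenitor maintenance, and in injured tubules attention has gone to matrix synthesis and epithelial-mesenchymal transition (EMT).

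Both groups had the kidney epithelial character of the line. Of 10 kidney epithelial markers, 9 had a mean of at least 1 TPM over the 6 libraries, among them KRT8, KRT18 and PAX8, and the exception was CDH1 (E-cadherin). Of 10 markers of mature proximal tubule only GGT1, SLC5A2 and AQP1 reached that level, and LRP2, CUBN and SLC34A1 did not. None of 8 endothelial markers reached it. Of the immune list PTPRC and CD3E did not either, whereas CD68 (mean 139 TPM) and CD14 (2.7 TPM) did. The libraries of a group were not equally alike. By Spearman correlation over the genes tested, HG+OE-FGF9 replicates 1 and 2 correlated at 0.986 with each other, whereas replicate 3 correlated at 0.933 and 0.931 with them and at 0.947 with HG replicate 1. HG replicate 3 correlated at 0.926 and 0.885 with the other HG libraries, which correlated at 0.971 with each other. HG replicate 3 also had the highest level of HSPA5, an endoplasmic reticulum chaperone, at 3088 TPM against 488 and 366 in the other HG libraries. The larger changes that leaving out either of these libraries made to a count are therefore given with that count. Nothing in the labels says that replicates were separate cultures, so p-values measure the spread between these libraries, which may be technical.

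FGF9 overexpression went with 370 differentially expressed protein-coding genes, 146 higher and 224 lower than in HG, where differential expression means a difference of at least 1 in log2(TPM + 1) and an unadjusted p under 0.01 by limma. These were 1.30% and 1.99% of the protein-coding genes tested, or 3.29% together. After Benjamini-Hochberg adjustment over all genes tested, 101 of the 370 had an adjusted p under 0.05, 57 higher and 44 lower, and 112 (0.996%) had one whatever the size of the difference, as had 1.92% of all genes tested. Groups did not overlap in 1232 protein-coding genes that were higher (11.0%) and 1128 that were lower (10.0%), and over all genes in 13.0% and 9.51%. Over all genes 3.00% were differentially expressed and higher and 1.96% lower, together 4.96%. The median difference of all protein-coding genes was -0.16, so the typical gene lay slightly below HG, and counts of lower genes stand on that. Scaling the libraries by median of ratios moved this median to -0.04, with 154 protein-coding genes higher and 182 lower, and the medians of the matrix, cross-linking, YAP, glycolysis, hypoxia, interferon, sterol and stress response lists kept their sign, for example -0.92 for matrix and 0.91 for the integrated stress response. All differences below are HG+OE-FGF9 minus HG on the log2(TPM + 1) scale, which understates changes of low genes, and are given with their standard error. An exact permutation test of 3 against 3 libraries cannot go below p = 0.1, so single genes were tested only in the limma fit across all genes, and every adjusted p is from that fit. The plot of difference against p shows the named genes among the others.

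**Figure D1:**
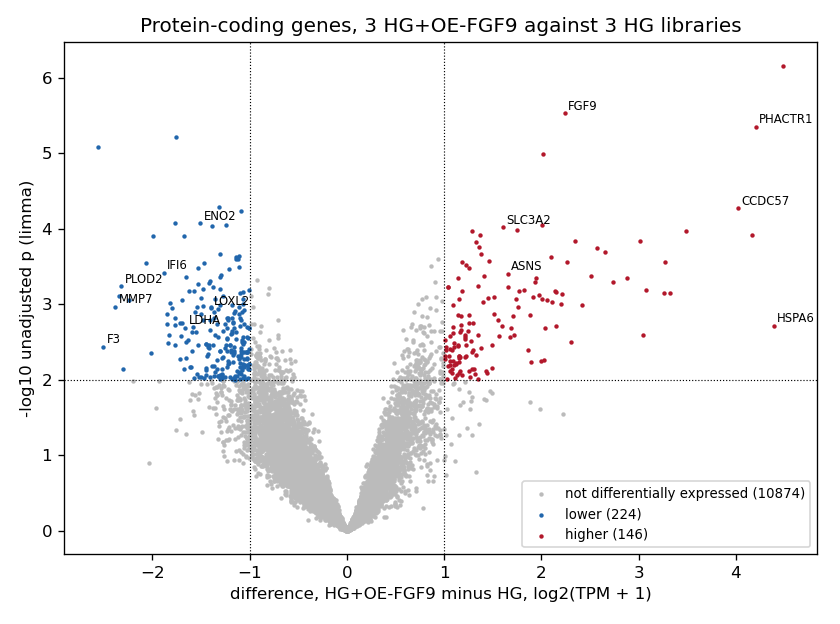
Difference between HG+OE-FGF9 and HG (x axis, log2(TPM + 1)) against −log10 of the unadjusted limma p (y axis) for 11244 protein-coding genes. Red points are the 146 higher and blue points the 224 lower genes, dotted lines mark the thresholds, and the higher genes reach further from 0 than the lower ones.

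FGF9 itself was listed at 0 TPM in all 3 HG libraries and at 3.34, 4.03 and 3.82 TPM in HG+OE-FGF9 replicates 1 to 3 (limma adjusted p = 0.0025). The gene (GENCODE 29, GRCh38, chromosome 13, 21671383 to 21704498) was also listed at 0 in every NG and si-FGF9 library, so the overexpression was visible in each treated library and in no other. The level was modest beside other transcripts: the median protein-coding gene tested stood at 7.52, 7.56 and 10.0 TPM in the same libraries, and FGF9 exceeded 30.6%, 34.9% and 26.0% of them. Reads from a vector may cover less than the annotated transcript, which was not tested.

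Of 21 tested genes for FGF receptors, co-receptors and adaptors, FGF9 rose, HSPG2 fell and 19 were not differentially expressed. HSPG2 encodes perlecan, a basement membrane heparan sulfate proteoglycan that binds FGFs. Its levels were 43.5, 40.7 and 42.7 TPM in HG and 10.9, 12.01 and 20.6 TPM in HG+OE-FGF9, a difference of -1.53 ± 0.26 (limma adjusted p = 0.031). The groups did not overlap, and replicate 3 was the highest of the FGF9 libraries. FGFR2, an FGF receptor, stood at 5.40, 2.74 and 4.24 TPM in HG and at 1.49, 1.60 and 2.02 TPM with FGF9, and its difference of -0.89 ± 0.27 stayed short of the threshold (limma adjusted p = 0.14). FGFR3, the receptor whose IIIc form binds FGF9 with high affinity, was at 4.73, 4.57 and 4.81 TPM in HG and at 1.95, 2.03 and 2.59 TPM with FGF9, a difference of -0.84 ± 0.22 (limma adjusted p = 0.11). For both receptors each FGF9 library was below each HG library. FGFR4 and FGFR1 overlapped between the groups, with differences of -0.54 ± 0.27 and -0.35 ± 0.25. Glypican GPC4, another heparan sulfate carrier, had a difference of -1.16 ± 0.35 with no overlap and did not pass the p threshold. Leaving out HG replicate 2 gave 3 lower genes and leaving out HG+OE-FGF9 replicate 3 gave 2.

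Among 37 genes of ERK feedback and the immediate early response 2 rose and none fell, with a median difference of -0.03. ATF3, a stress-inducible bZIP factor, was at 13.3, 8.29 and 21.6 TPM in HG and at 61.3, 63.5 and 41.6 TPM with FGF9, a difference of 1.94 ± 0.34 (limma adjusted p = 0.037). FOSB, a subunit of the AP-1 transcription factor, went from 0.50, 0.74 and 1.11 TPM to 3.92, 4.03 and 2.70 TPM, a difference of 1.35 ± 0.25 (limma adjusted p = 0.043). Both were higher in 3 of 3 FGF9 libraries than in any HG library. The ERK feedback genes did not pass: DUSP6, an ERK phosphatase, had a difference of -0.22 ± 0.32 and SPRY4, a receptor feedback inhibitor, of 0.24 ± 0.25. Without HG replicate 3 the list had 6 higher genes and none lower. Of the EGF receptor family and its ligands, 1 of 10 tested genes changed: the ligand BTC (betacellulin) fell by 1.15 ± 0.33 (limma adjusted p = 0.13), from 4.0, 1.95 and 3.40 TPM to 0.42, 0.52 and 1.76 TPM, and it was no longer differentially expressed in 4 of the 6 fits that each left out 1 library.

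Matrix genes had the lowest median of the lists with all 6 libraries. Of 30 tested collagens, laminins and matrix glycoproteins, 11 fell and none rose, with a median difference of -1.06 against -0.16 over all protein-coding genes, and 29 of the 30 differences were negative. Without HG+OE-FGF9 replicate 3 the interferon list had a lower median than matrix (-1.25 against -1.21), and without HG replicate 3 glycolysis (-1.04) and interferon (-1.02) did. The largest was that of COL8A1, a short-chain collagen, at 23.9, 15.8 and 19.8 TPM in HG and 2.17, 1.92 and 7.96 TPM with FGF9 (-2.24 ± 0.44, limma adjusted p = 0.048). The proteoglycan versican (VCAN) went from 18.1, 9.33 and 21.8 TPM to 1.85, 1.64 and 8.0 TPM (-2.02 ± 0.52, limma adjusted p = 0.099). For both genes replicate 3 of the FGF9 group lay between the other FGF9 libraries and HG, without overlap.

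Several of the lower genes encode parts of basement membranes, whereas the laminin chains LAMB1 (-1.03 ± 0.47) and LAMC1 (-0.76 ± 0.48) were not differentially expressed. Agrin (AGRN) was at 147, 160 and 136 TPM in HG and at 50.1, 48.9 and 70.4 TPM with FGF9 (-1.39 ± 0.19, limma adjusted p = 0.021). The laminin chain LAMA5 was at 43.7, 42.3 and 40.5 TPM in HG and at 17.8, 17.3 and 16.4 TPM with FGF9 (-1.25 ± 0.17, limma adjusted p = 0.021). COL18A1, the source of endostatin, went from 50.5, 47.8 and 45.3 TPM to 17.2, 16.0 and 23.7 TPM (-1.31 ± 0.21, limma adjusted p = 0.028). In AGRN, LAMA5 and COL18A1 all HG libraries lay close together and the FGF9 libraries were well below them. NID1 (nidogen, which links laminin to collagen IV; -1.43 ± 0.37), FBN1 (fibrillin of microfibrils; -1.33 ± 0.39), COL5A1 (-1.14 ± 0.18), COL7A1 (-1.10 ± 0.21) and COL4A1 (-1.08 ± 0.22) fell as well. Fibronectin (FN1), the most abundant member, had 2661, 1590 and 3443 TPM in HG and 560, 567 and 1942 TPM with FGF9. Its groups overlapped through replicate 3, and the difference of -1.52 ± 0.49 was not past the threshold (limma adjusted p = 0.16). Leaving out 1 library at a time gave 6 to 15 lower members, 15 of them once HG+OE-FGF9 replicate 3 was dropped, 8 once HG replicate 3 was, 7 once HG replicate 1 was and 6 once HG+OE-FGF9 replicate 2 was. The summed level of 10 fibroblast and pericyte markers was 22.5 to 43.5 TPM in HG and 14.3 to 25.3 TPM with FGF9, with PDGFRA, PDGFRB and COL3A1 under 1 TPM everywhere. LUM, ACTA2 and COL1A1 had means of 20.5, 3.6 and 2.2 TPM over the 6 libraries. The part of fibroblasts or pericytes in the result was not tested, and in bulk RNA fewer cells of a type and less RNA per cell cannot be told apart.

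Enzymes that modify and cross-link collagen fell with it, 4 of 14 tested and none rising (median -0.68, every difference negative). PLOD2, a lysyl hydroxylase for telopeptide cross-links, was at 120, 57.8 and 83.9 TPM in HG and at 10.98, 11.6 and 31.2 TPM with FGF9 (-2.32 ± 0.42, limma adjusted p = 0.043). LOXL2, a lysyl oxidase, was at 382, 333 and 378 TPM in HG and at 107, 108 and 223 TPM with FGF9 (-1.40 ± 0.28, limma adjusted p = 0.052). LOX, the founding member of that family, went from 70.7, 54.3 and 48.2 TPM to 26.4, 21.9 and 23.8 TPM (-1.22 ± 0.20, limma adjusted p = 0.032). In LOX the 3 FGF9 libraries lay together, while in PLOD2 and LOXL2 replicate 3 lay between the other FGF9 libraries and HG. LOXL1 fell by 1.25 ± 0.27. All 4 remained differentially expressed in each fit that left out 1 library, but with a GC correction LOX was at -0.90 and no longer passed.

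The TGF-beta and EMT genes moved in part. Of 27 tested TGF-beta, activin and BMP genes, TGFB2 and LTBP2 fell and GDF15 rose, and with 1 library left out at a time TGFB2 stayed past the threshold in 6 of 6 fits, LTBP2 in 2 and GDF15 in 1. TGFB2, a ligand, was at 23.1, 14.0 and 25.0 TPM in HG and at 4.88, 5.00 and 9.29 TPM with FGF9 (-1.57 ± 0.32, limma adjusted p = 0.054). The ligand TGFB1 was at 97.1, 115 and 89.2 TPM in HG and 93.4, 92.2 and 88.7 TPM with FGF9, a difference of -0.13 ± 0.16. The TGFB2 groups were far apart and those of TGFB1 overlapped. THBS1 (thrombospondin 1, an activator of latent TGF-beta) went from 53.6, 30.7 and 21.7 TPM to 7.38, 7.98 and 14.2 TPM (-1.70 ± 0.37, limma adjusted p = 0.066). With LOX it made up the 2 lower genes among 15 tested EMT regulators and markers, of which none rose, and without HG replicate 2 this list had 5 lower genes. The EMT transcription factors were not differentially expressed, with -0.42 for SNAI2 and 0.35 for SNAI1, and vimentin (VIM) had a difference of -0.57 with no overlap. ACTA2 (smooth muscle actin) stayed at low levels of 5.27, 5.15 and 2.30 TPM in HG and 2.58, 3.73 and 2.70 TPM with FGF9 (-0.34 ± 0.32). CDH1 was at most 0.2 TPM in all 6 libraries and was not tested. HIF1A and ITGB1 (integrin beta 1) varied widely within HG, at 78.4, 37.2 and 216 TPM and at 177, 78.5 and 272 TPM. Their FGF9 libraries, at 29.7, 30.4 and 62.6 TPM and at 43.8, 44.5 and 114 TPM, overlapped with HG, and neither difference (-1.14 ± 0.59 and -1.35 ± 0.51) passed.

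Targets of the mechanosensitive coactivators YAP and TAZ included 5 lower genes of 20 tested and none higher (median -0.69). They were F3 (tissue factor; -2.51 ± 0.62), THBS1, TGFB2, CRIM1 (a transmembrane BMP antagonist; -1.16 ± 0.34) and WWTR1, which encodes TAZ itself (-1.10 ± 0.23). The count was 2 when HG+OE-FGF9 replicate 1 was left out and 3 when HG replicate 1 was. F3 went from 41.1, 24.2 and 6.63 TPM to 1.59, 1.84 and 5.0 TPM (limma adjusted p = 0.093), so replicate 3 of both groups nearly met. With 1 library left out at a time F3 stayed past the threshold in 3 of 6 fits and CRIM1 in 1. CCN1 and ANKRD1, commonly used as readouts of this pathway, had differences of -0.12 and 0.07 and were not differentially expressed. Of 17 integrin genes ITGB6 fell (-1.14 ± 0.27), and of 19 metalloproteinase and inhibitor genes MMP7 and MMP24 fell. MMP7 (matrilysin), secreted by injured tubules, was at 78.6, 43.5 and 24.4 TPM in HG and at 5.06, 5.95 and 14.1 TPM with FGF9 (-2.38 ± 0.48, limma adjusted p = 0.052). Its highest FGF9 library was still below its lowest HG library. Without HG+OE-FGF9 replicate 3 the integrin and metalloproteinase lists had 4 lower genes each, and with HG replicate 1 or either of the other FGF9 libraries left out they had 0 and 1. With HG replicate 2 left out the integrins had 4.

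**Figure D2:**
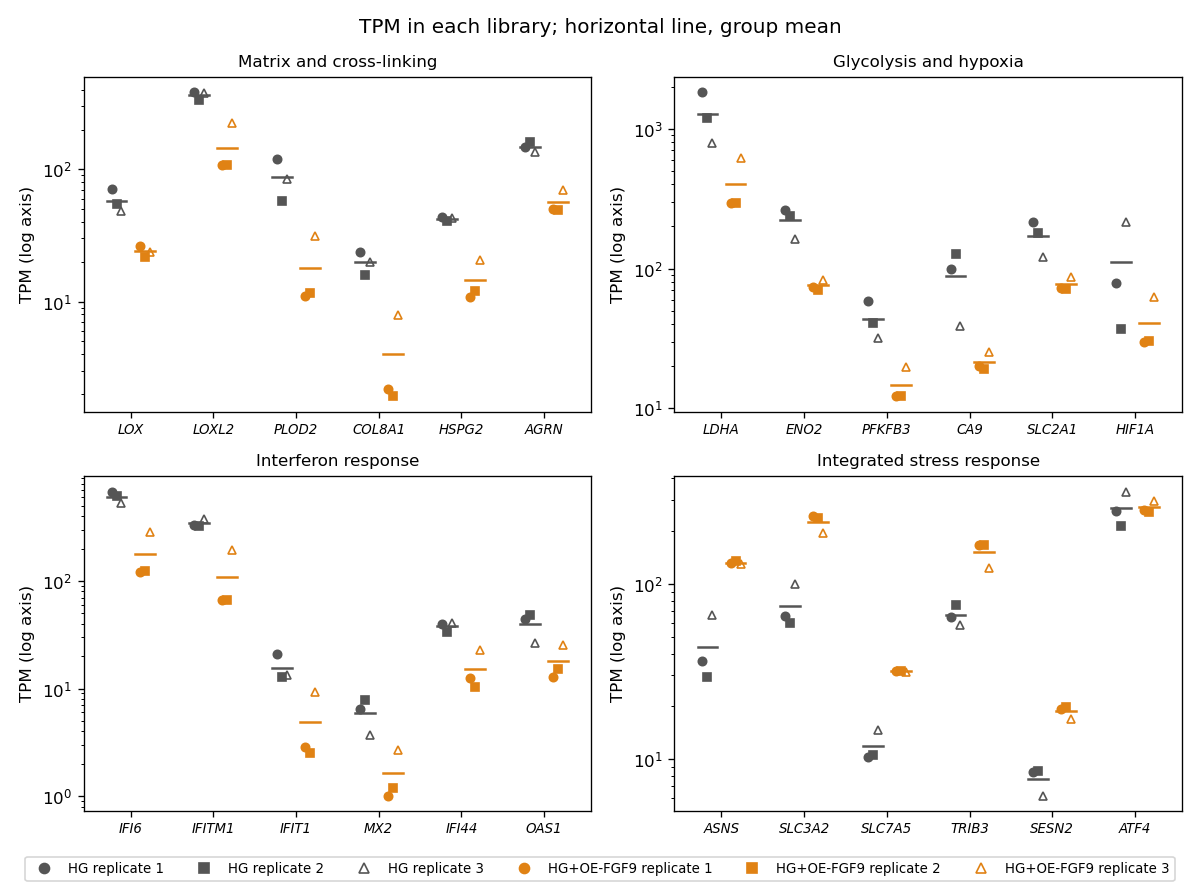
TPM on a log axis for 24 genes of 4 groups, with HG in grey and HG+OE-FGF9 in orange, 1 symbol per replicate (open triangles, replicate 3) and a bar at the mean of 3 libraries. The matrix, glycolysis and interferon genes lie lower with FGF9 apart from an overlap in HIF1A, the stress response genes lie higher apart from ATF4, and replicate 3 often sits nearer the other group.

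Glycolysis was lower in part. Of 20 tested glycolytic enzymes and regulators, 6 fell and none rose, with a median of -0.66. LDHA, which makes lactate, was at 1823, 1197 and 786 TPM in HG and at 296, 295 and 613 TPM with FGF9 (-1.66 ± 0.37, limma adjusted p = 0.069). The enolase ENO2 was at 263, 236 and 164 TPM in HG and at 74.1, 70.7 and 82.6 TPM with FGF9 (-1.51 ± 0.21, limma adjusted p = 0.021). PFKFB3, which makes the activator of phosphofructokinase, went from 58.2, 41.0 and 31.6 TPM to 12.3, 12.2 and 19.6 TPM (-1.5 ± 0.29, limma adjusted p = 0.047). HG replicate 3 was the lowest HG library in each of the 3 genes, and still above every FGF9 library. PFKFB4 (-2.30 ± 0.65), PDK1, which shuts pyruvate out of mitochondria (-1.30 ± 0.33), and hexokinase HK2 (-1.02 ± 0.28) fell too, and PFKFB4 had 24.1, 23.5 and only 3.21 TPM in HG. Not all steps followed: LDHB had a difference of 0.21, PFKM of 0.34 and ALDOA of -0.29. Summed over all 21 listed members the groups overlapped, at 30746, 33627 and 15175 TPM in HG and 14952, 14700 and 15883 TPM with FGF9. Without HG replicate 3 the list had 10 lower genes, and it had 3 when HG replicate 1 or either HG+OE-FGF9 replicate 1 or 2 was left out.

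Hypoxia-inducible genes included 6 lower of 25 tested and none higher (median -0.67). CA9, a membrane carbonic anhydrase, was at 99.7, 128 and 38.8 TPM in HG and at 20.0, 19.2 and 25.1 TPM with FGF9 (-1.85 ± 0.41, limma adjusted p = 0.066). BNIP3, a mitophagy receptor, was at 564, 393 and 165 TPM in HG and at 96.2, 95.8 and 112 TPM with FGF9 (-1.71 ± 0.40, limma adjusted p = 0.078). SLC2A1, the glucose transporter GLUT1, went from 214, 180 and 121 TPM to 72.4, 71.8 and 87.5 TPM (-1.11 ± 0.23, limma adjusted p = 0.056). The FGF9 libraries were close together in all 3 genes and the spread lay in HG. INSIG2, a sterol sensor partner that hypoxia also induces (-2.07 ± 0.34, limma adjusted p = 0.03), BNIP3L (-1.16 ± 0.26) and EGLN1, a prolyl hydroxylase acting on HIF (-1.10 ± 0.33), fell as well. VEGFA and ANGPTL4 had differences of -0.09 and 0.07. The count rose to 9 lower genes without HG replicate 2 or 3 and dropped to 3 without HG replicate 1. Among 17 glucose sensing and osmolyte genes, SLC2A1 and GFPT2, an entry enzyme of hexosamine synthesis (-1.10 ± 0.30), fell, while TXNIP, a glucose-induced gene, had 598 TPM in HG on average and 399 TPM with FGF9 and was not differentially expressed. Dropping HG+OE-FGF9 replicate 3 gave 4 lower genes in this list, dropping HG replicate 3 or 1 of the other FGF9 libraries gave 1, and dropping HG replicate 1 gave 0, as did median-of-ratios scaling.

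The 250 bases before the start sites of glycolysis and hypoxia genes were read for the core of the hypoxia response element, ACGTG on either strand, in RefSeq promoters (GRCh38.p14), where a match is only a match of letters. It was present in 23.9% of the promoters of 9179 protein-coding genes tested that had an entry, in 11 of 21 hypoxia-inducible genes (52.4%) and in 8 of 20 glycolysis genes (40.0%). Of the 176 lower protein-coding genes with an entry, 18.8% held it. The promoters of PFKFB4, PFKFB3, PDK1 and SLC2A1, which were lower too, did not hold it. The promoters of LDHA, BNIP3 and CA9 are shown, at chr11:18394313-18394562, chr10:131981924-131982173 (minus strand) and chr9:35673678-35673927, with matches in capitals. In the palindrome CACGTG both strands match with 1 base of shift, so that LDHA counts 5 matches and BNIP3 2.
LDHA: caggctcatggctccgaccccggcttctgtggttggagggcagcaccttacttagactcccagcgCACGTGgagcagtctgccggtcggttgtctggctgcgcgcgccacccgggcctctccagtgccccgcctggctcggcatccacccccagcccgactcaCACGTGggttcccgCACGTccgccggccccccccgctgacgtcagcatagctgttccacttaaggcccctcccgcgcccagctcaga
BNIP3: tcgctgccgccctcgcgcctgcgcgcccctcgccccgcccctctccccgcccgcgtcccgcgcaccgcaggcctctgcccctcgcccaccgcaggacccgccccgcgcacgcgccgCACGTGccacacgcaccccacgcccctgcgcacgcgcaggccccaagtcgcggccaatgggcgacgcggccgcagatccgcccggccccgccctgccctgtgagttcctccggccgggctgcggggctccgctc
CA9: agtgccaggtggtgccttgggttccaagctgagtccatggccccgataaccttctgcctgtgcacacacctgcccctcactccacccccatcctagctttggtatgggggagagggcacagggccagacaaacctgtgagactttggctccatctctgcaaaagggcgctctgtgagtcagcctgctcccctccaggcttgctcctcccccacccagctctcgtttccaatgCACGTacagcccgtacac

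The type I interferon response was lower as well. Of 30 tested genes 9 fell and none rose, and the median was -0.96. IFI6, an interferon-induced protein of mitochondria and endoplasmic reticulum, was at 678, 615 and 526 TPM in HG and at 122, 123 and 286 TPM with FGF9 (-1.89 ± 0.32, limma adjusted p = 0.034). IFITM1, which restricts entry of viruses, was at 335, 325 and 379 TPM in HG and at 67.2, 66.3 and 193 TPM with FGF9 (-1.85 ± 0.39, limma adjusted p = 0.056). In both genes HG+OE-FGF9 replicates 1 and 2 were nearly equal and replicate 3 was well above them but below every HG library. Also lower were IFIT1 (-1.65 ± 0.43) and MX2 (-1.41 ± 0.35), antiviral effectors, IFI44 (-1.33 ± 0.29), OAS1, which senses double-stranded RNA (-1.13 ± 0.32), and the RNA sensor IFIH1 (-1.13 ± 0.33). IRF1, IRF7 and ISG20 had small positive differences of 0.10, 0.25 and 0.32. The count moved most of all lists with the libraries used, from 3 when HG+OE-FGF9 replicate 1 or 2 was left out and 4 when HG replicate 1 was, to 17 when HG+OE-FGF9 replicate 3 was. Summed over 8 immune markers the level was 120 to 128 TPM in HG and 161 to 166 TPM with FGF9, nearly all of it CD68, with PTPRC, CD3E and CD79A under 1 TPM, and its part in the result was not tested.

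The interferon-stimulated response element, searched by its core GAAANNGAA on both strands, occurred before the start of 17 of 22 interferon genes with a RefSeq entry (77.3%) and in 5.29% of all tested protein-coding genes with one. IFI6 and IFIT1 are shown for their several matches (capitals), at chr1:27672193-27672442 on the minus strand and chr10:89392373-89392622. Of the lower protein-coding genes as a whole 7.39% held the letters, and of the higher ones 5.71%.
IFI6: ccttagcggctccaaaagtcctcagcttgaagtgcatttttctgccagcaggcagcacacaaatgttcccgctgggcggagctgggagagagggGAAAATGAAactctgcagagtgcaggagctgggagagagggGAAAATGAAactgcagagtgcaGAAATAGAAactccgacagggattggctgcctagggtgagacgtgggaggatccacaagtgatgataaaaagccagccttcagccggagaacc
IFIT1: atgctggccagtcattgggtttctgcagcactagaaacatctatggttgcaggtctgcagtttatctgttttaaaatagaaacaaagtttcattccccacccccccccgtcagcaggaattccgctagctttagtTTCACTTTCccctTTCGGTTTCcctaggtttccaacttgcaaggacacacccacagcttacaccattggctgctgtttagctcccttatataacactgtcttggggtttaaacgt

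The integrated stress response had the highest median of the lists with all 6 libraries. This pathway responds to amino acid shortage and other stresses through translation of the factor ATF4, whose targets import and make amino acids. Of 26 tested genes 8 rose and 1 fell, with a median of 0.79. Without HG replicate 3 the median of the histone list was higher, at 1.08 against 0.91. Asparagine synthetase (ASNS) was at 36.1, 29.3 and 65.9 TPM in HG and at 132, 135 and 129 TPM with FGF9 (1.65 ± 0.28, limma adjusted p = 0.035). SLC3A2, the heavy chain of amino acid exchangers, was at 65.1, 59.5 and 99.7 TPM in HG and at 242, 236 and 195 TPM with FGF9 (1.60 ± 0.22, limma adjusted p = 0.021). SLC7A5, its light chain for large neutral amino acids, went from 10.3, 10.6 and 14.6 TPM to 31.7, 32.0 and 31.2 TPM (1.36 ± 0.21, limma adjusted p = 0.026). The FGF9 libraries were close together in ASNS and SLC7A5, replicate 3 included, and HG replicate 3 was the highest of HG.

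SESN2, an inhibitor of mTORC1, rose from 8.44, 8.56 and 6.19 TPM to 19.4, 19.8 and 16.95 TPM (1.19 ± 0.22, limma adjusted p = 0.044). The pseudokinase TRIB3, a feedback inhibitor of ATF4, rose from 64.6, 75.3 and 58.5 TPM to 167, 167 and 122 TPM (1.18 ± 0.19, limma adjusted p = 0.03). Both were clear of overlap in every library. GDF15, a stress cytokine, was at 26.1, 26.2 and 113 TPM in HG and at 204, 200 and 128 TPM with FGF9 (1.99 ± 0.53, limma adjusted p = 0.11), so HG replicate 3 came near the lowest FGF9 library. NUPR1, a stress-induced chromatin protein (1.86 ± 0.47), and SLC7A11, the cystine transporter (1.11 ± 0.33), rose from low levels. ATF4 mRNA itself was at 259, 213 and 335 TPM in HG and 264, 255 and 298 TPM with FGF9, a difference of 0.04 ± 0.19. PHGDH, the first enzyme of serine synthesis, had a difference of 0.94 ± 0.15 without overlap (limma adjusted p = 0.030), just short of the size required. The lower gene was the lipoprotein receptor VLDLR (-1.58 ± 0.29, limma adjusted p = 0.044). The amino acid transporter SLC38A2 was not on this list and was lower (-1.83 ± 0.42, limma adjusted p = 0.077). DDIT3 (CHOP), a proapoptotic factor of the pathway, was at 129, 110 and 1493 TPM in HG and at 786, 779 and 561 TPM with FGF9, and HG replicate 3 was above all of them. Without that library the list had 12 higher genes, and it had 5 if HG replicate 1 or HG+OE-FGF9 replicate 1 was dropped instead.

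Endoplasmic reticulum chaperones followed only in part, with 2 of 22 higher and none lower (median 0.41). SDF2L1, a cofactor of BiP, rose by 1.27 ± 0.37 and CRELD2, a secreted stress protein, by 1.17 ± 0.26. HSPA5 (BiP) was at 1192, 1215 and 1176 TPM with FGF9, above HG replicates 1 and 2 and below HG replicate 3, with a difference of 0.54 ± 0.69. Without HG replicate 3 the list had 6 higher genes, and without any other single library it had 1. Of 34 p53 and apoptosis genes CDKN1A and SESN2 rose and none fell. CDKN1A, the cell cycle inhibitor p21, was at 16.6, 18.3 and 35.2 TPM in HG and at 68.7, 69.7 and 56.6 TPM with FGF9 (1.51 ± 0.29, limma adjusted p = 0.047), without overlap, and without HG replicate 3 the list had 5 higher genes. Of 30 NRF2 targets, antioxidant enzymes and metallothioneins OSGIN1 and SLC7A11 rose and none fell. SLC7A11 stayed past the threshold in 2 of the 6 fits that each left out 1 library, so that the list had 1 higher gene in 4 of them, and 2 genes were lower without HG replicate 2 or HG+OE-FGF9 replicate 3. OSGIN1, an oxidative stress-induced growth inhibitor, went from 8.02, 9.79 and 9.18 TPM to 38.9, 37.6 and 23.5 TPM (1.75 ± 0.25, limma adjusted p = 0.022), whereas the classical targets NQO1 (0.27) and HMOX1 (0.36) were not differentially expressed.

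The amino acid response element, searched as TGATGNAA on both strands in the same 250 bases, was found in 2 of 21 stress response promoters with an entry (9.52%) and in 1.29% of all tested protein-coding genes with one. Of 7 differentially expressed genes of the list with an entry only ASNS held it, and SLC3A2, SLC7A5, SESN2 and TRIB3 did not. Of all higher protein-coding genes with an entry 3.81% held it, and of the lower ones 2.84%. ATF3 of the immediate early list held it too. ASNS and ATF3 are shown because they held it and rose, at chr7:97872409-97872658 on the minus strand and chr1:212565157-212565406, with the match in capitals. A single start site per gene was read, for ATF3 at the upstream end of the annotated gene. Whether these cells use that start was not tested.
ASNS: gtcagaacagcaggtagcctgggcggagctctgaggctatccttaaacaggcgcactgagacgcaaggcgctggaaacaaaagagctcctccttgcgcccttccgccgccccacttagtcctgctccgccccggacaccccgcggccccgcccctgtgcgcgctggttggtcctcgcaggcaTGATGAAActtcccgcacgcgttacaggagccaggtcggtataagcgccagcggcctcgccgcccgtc
ATF3: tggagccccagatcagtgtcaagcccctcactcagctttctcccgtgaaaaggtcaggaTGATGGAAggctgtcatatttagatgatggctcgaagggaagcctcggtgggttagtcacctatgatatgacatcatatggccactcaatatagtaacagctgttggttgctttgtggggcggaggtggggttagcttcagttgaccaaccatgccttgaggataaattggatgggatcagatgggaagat

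Lipid and injury genes gave smaller groups. Of 34 cholesterol and fatty acid genes 4 fell and none rose (median -0.42). SCD, the stearoyl-CoA desaturase, went from 56.7, 44.8 and 56.5 TPM to 22.7, 22.4 and 29.1 TPM (-1.06 ± 0.20, limma adjusted p = 0.044). Its FGF9 libraries were below all HG libraries. LSS, an enzyme of sterol synthesis, fell too (-1.20 ± 0.29), while SREBF1, a transcription factor of lipid synthesis, had a difference of -0.30 and was not differentially expressed.

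Of 20 proximal tubule identity and injury genes 5 fell and GDF15 rose. HAVCR1 (KIM-1), the tubular injury receptor, was at 17.3, 9.68 and 18.7 TPM in HG and at 2.52, 2.55 and 6.74 TPM with FGF9 (-1.77 ± 0.39, limma adjusted p = 0.067). VCAM1, an adhesion molecule of maladaptive tubules, was at 7.71, 4.74 and 7.47 TPM in HG and at 0.52, 0.60 and 3.38 TPM with FGF9 (-1.77 ± 0.43, limma adjusted p = 0.091). SPP1 (osteopontin) went from 634, 347 and 969 TPM to 194, 187 and 346 TPM (-1.36 ± 0.39, limma adjusted p = 0.13). The highest SPP1 value with FGF9 nearly met the lowest in HG. The kidney transcription factor PAX8 (-1.31 ± 0.26) and cadherin CDH6 (-1.34 ± 0.37) also fell, whereas the injury marker LCN2 had 158 TPM on average in HG and 210 TPM with FGF9 and overlapped. This count was 1 when HG replicate 1 was left out, 2 when HG+OE-FGF9 replicate 1 or 2 was and 3 when HG replicate 3 was. Of 24 inflammatory and NF-kB genes VCAM1 and C3 fell, the complement component C3 from 376, 394 and 401 TPM to 173, 174 and 201 TPM (-1.09 ± 0.14, limma adjusted p = 0.017), and that list had 6 lower genes and 1 higher without HG+OE-FGF9 replicate 3, 4 lower without HG replicate 2, and 1 lower without HG replicate 1 or either of the other FGF9 libraries.

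Large housekeeping groups changed little, apart from a lower median of the mitosis genes. None of 60 nuclear-encoded respiratory chain genes, 82 ribosomal protein genes, 37 proteasome genes, 34 translation factors, 18 heat shock chaperones, 40 actin cytoskeleton genes, 16 clock genes and 28 small RNA processing genes was differentially expressed by limma, with medians between -0.23 and 0.09. Among 40 DNA replication and 40 mitosis genes none was either, with medians of -0.04 and -0.53, and 34 of the mitosis differences were negative. In these 10 lists 32 of 395 members had an unadjusted p under 0.05, as had 1888 of all 11244 protein-coding genes tested. Without HG+OE-FGF9 replicate 3 the mitosis list had 8 lower genes and the actin cytoskeleton list 2. Single genes changed in the remaining lists: the mitochondrially encoded MT-ND2 (1.04 ± 0.19) and the lysosomal channel MCOLN1 (1.23 ± 0.32) rose, and the splicing factor SRSF1 (-1.15 ± 0.34) and the kidney cadherin CDH16 (-1.07 ± 0.26) fell. With 1 library left out at a time MT-ND2, MCOLN1 and SRSF1 stayed past the threshold in 2 of 6 fits and CDH16 in 3, and SRSF1 lost it under the GC correction too (-0.88). The mitochondrially encoded genes had 3 higher members when HG replicate 2 was dropped and 2 when HG+OE-FGF9 replicate 3 was. CDH16 and CDH6 were the lower genes of 26 for junctions, keratins and vimentin, a count of 3 without HG+OE-FGF9 replicate 3, 1 without HG replicate 3 and 0 without HG replicate 1 or either of the other FGF9 libraries. Without HG+OE-FGF9 replicate 3 the 39 spliceosome genes had 7 lower members. Without HG replicate 3, 4 heat shock chaperones and 3 clock genes were higher, and without HG replicate 2, 2 translation factors were lower. The heat shock list did not hold HSPA6, an inducible HSP70 that was higher (4.39 ± 0.97) and is described below.

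**Figure D3:**
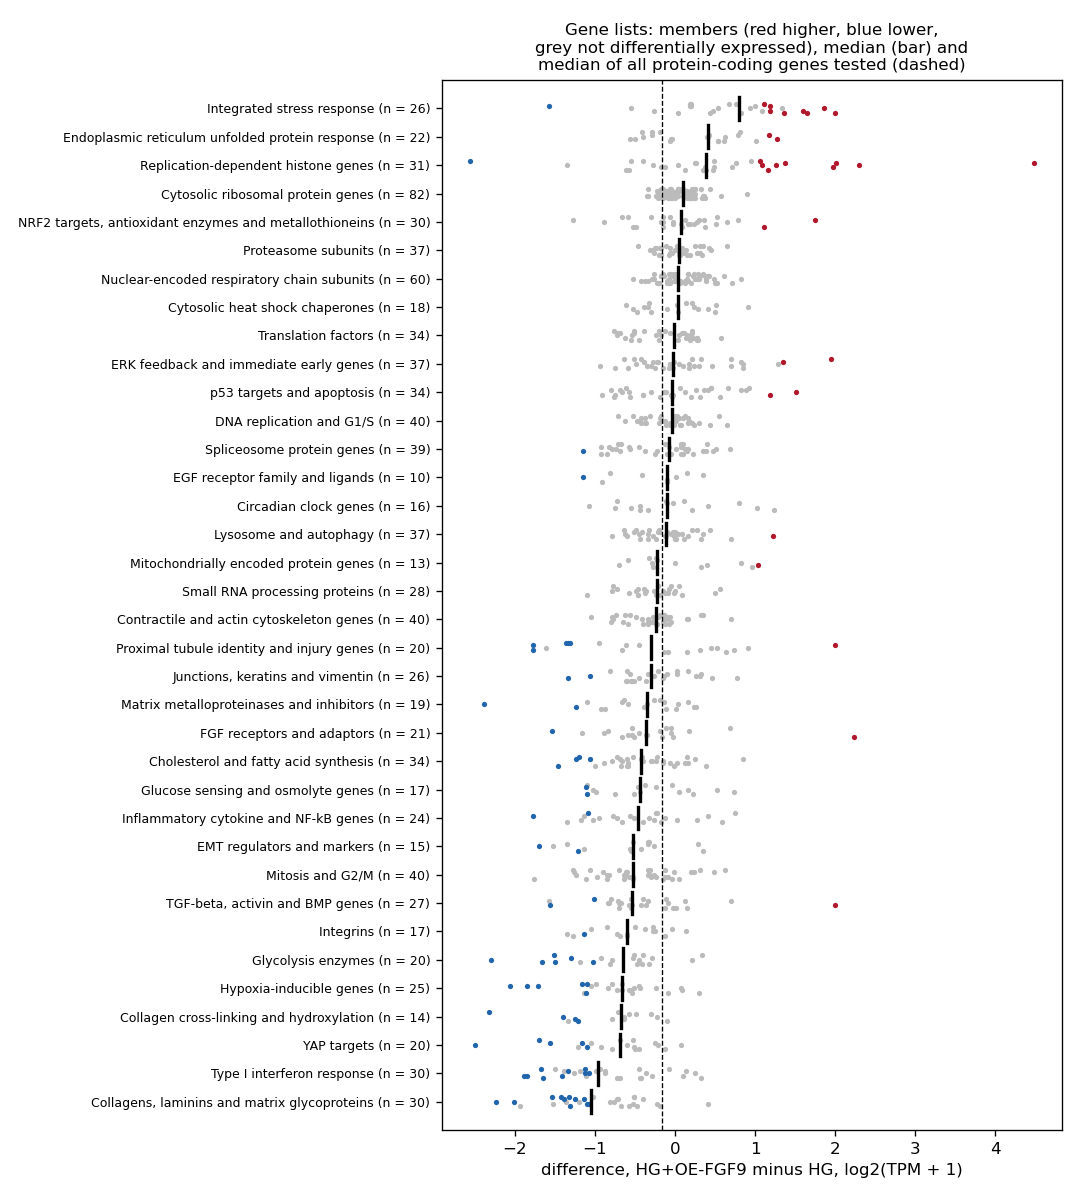
Difference between HG+OE-FGF9 and HG (x axis, log2(TPM + 1)) of every tested member of 36 gene lists, ordered by median (bar), with red points higher, blue points lower and grey points not differentially expressed. Matrix, interferon, YAP and cross-linking lists lie to the left of the dashed median of protein-coding genes (-0.16), and the integrated stress response lies furthest to the right.

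Among single protein-coding genes with a mean of at least 5 TPM in the higher group, histones apart, HSPA6 had the largest positive difference. This strictly inducible HSP70 was at 0.63, 0.90 and 25.6 TPM in HG and at 116, 111 and 56.6 TPM with FGF9 (4.39 ± 0.97, limma adjusted p = 0.067). PHACTR1, an actin and phosphatase regulator, was at 0.13, 0.44 and 0.24 TPM in HG and at 29.4, 32.0 and 11.6 TPM with FGF9 (4.20 ± 0.39, limma adjusted p = 0.0029). SERPING1, the C1 inhibitor of complement, went from 0.31, 0.22 and 0.11 TPM to 35.6, 37.8 and 6.25 TPM (4.17 ± 0.60, limma adjusted p = 0.023). Apart from HSPA6 in HG replicate 3, no HG library came near the FGF9 libraries, and replicate 3 was again the lowest of these. The choice of these genes required groups without overlap. PHACTR1 and SERPING1, under 1 TPM in every HG library, were also taken up through the FGF9 libraries alone. CCDC57 followed at 7.29, 7.97 and 3.61 TPM in HG and 174, 174 and 46.9 TPM with FGF9 (4.02 ± 0.52, limma adjusted p = 0.016). The others were HBA1, a globin with a near-identical copy that makes its level uncertain, the SUMO protease SENP7, FRMPD1, the endosomal retriever subunit VPS35L, the zinc finger genes ZNF347 and ZNF583, the anandamide hydrolase FAAH, the phosphodiesterase PDE6A, the channel PKD2L2, the trypsin inhibitor SPINK1 and the neuroendocrine chaperone SCG5, with differences from 3.48 to 2.57. FRMPD1, VPS35L, ZNF583, FAAH, PDE6A and PKD2L2 were likewise under 1 TPM in every HG library. SCG5 differed from the rest in that replicate 3 was level with the others, at 28.9, 31.1 and 28.3 TPM against 3.19, 2.26 and 8.83 TPM in HG.

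The 15 lower genes chosen in the same way were F3, MMP7, TNFSF10, PLOD2, PFKFB4, COL8A1, INSIG2, VCAN, MATN2, IFI6, CA9, IFITM1, TM4SF18, SLC38A2 and DEPP1, from -2.51 to -1.82, of which 10 belong to lists above. TNFSF10 (the death ligand TRAIL) went from 25.8, 13.8 and 7.52 TPM to 1.64, 1.24 and 3.35 TPM (-2.34 ± 0.45, limma adjusted p = 0.046). Matrilin MATN2, a matrix adaptor, went from 55.6, 35.3 and 44.2 TPM to 8.26, 8.71 and 15.5 TPM (-1.99 ± 0.29, limma adjusted p = 0.023). The amino acid transporter SLC38A2 fell by 1.83 ± 0.42, opposite in direction to SLC3A2 and SLC7A5, from 45.5, 25.4 and 61.8 TPM to 8.03, 8.02 and 20.0 TPM. Each of the 15 had all 3 FGF9 libraries below all HG libraries, as the choice required.

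The map of all 12 libraries sets these genes beside NG and si-FGF9, both at 5.5 mM glucose. These groups share the HG reference and are given as levels only. In NG the mean level was 169 ± 12.9 TPM (SD, n = 3) for LOX, 113 ± 5.12 TPM for TGFB2 and 293 ± 37.0 TPM for PLOD2, each above HG and further above HG+OE-FGF9. For IFI6 it was 669 ± 101 TPM and for LDHA 1648 ± 118 TPM, in the range of HG. For the stress response genes NG held 49.1 ± 10.1 TPM of ASNS, 89.9 ± 4.86 TPM of SLC3A2 and 12.1 ± 2.06 TPM of SLC7A5, near HG and below HG+OE-FGF9. ATF3 stood at 72.0 ± 11.7 TPM in NG, above HG and close to the FGF9 libraries. FOSB, at 62.6 ± 14.3 TPM in NG, was far above its means of 0.78 TPM in HG and 3.55 TPM in HG+OE-FGF9. In si-FGF9 the mean level was 41.9 ± 4.74 TPM for LOX, 8.94 ± 3.79 TPM for TGFB2, 38.8 ± 11.3 TPM for PLOD2 and 6.17 ± 1.11 TPM for COL8A1, each between the means of HG and HG+OE-FGF9. IFI6 at 345 ± 11.7 TPM and LDHA at 490 ± 34.6 TPM also lay between these means in si-FGF9, while VCAN at 3.34 ± 1.00 TPM, HAVCR1 at 3.86 ± 1.15 TPM and IFIT1 at 3.40 ± 0.38 TPM were below the means of HG+OE-FGF9. Other genes that were lower with FGF9 had si-FGF9 means above those of HG. AGRN was at 160 ± 5.72 TPM against 147 TPM in HG, and LAMA5 at 47.5 ± 2.37 TPM against 42.1 TPM. CA9 was at 124 ± 12.2 TPM against 88.8 TPM in HG, and C3 at 639 ± 60.9 TPM against 390 TPM. ASNS was at 59.8 ± 5.55 TPM, SLC3A2 at 73.8 ± 5.61 TPM, SLC7A5 at 8.88 ± 1.47 TPM and ATF3 at 6.47 ± 1.28 TPM in si-FGF9, all below HG+OE-FGF9.

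**Figure D4:**
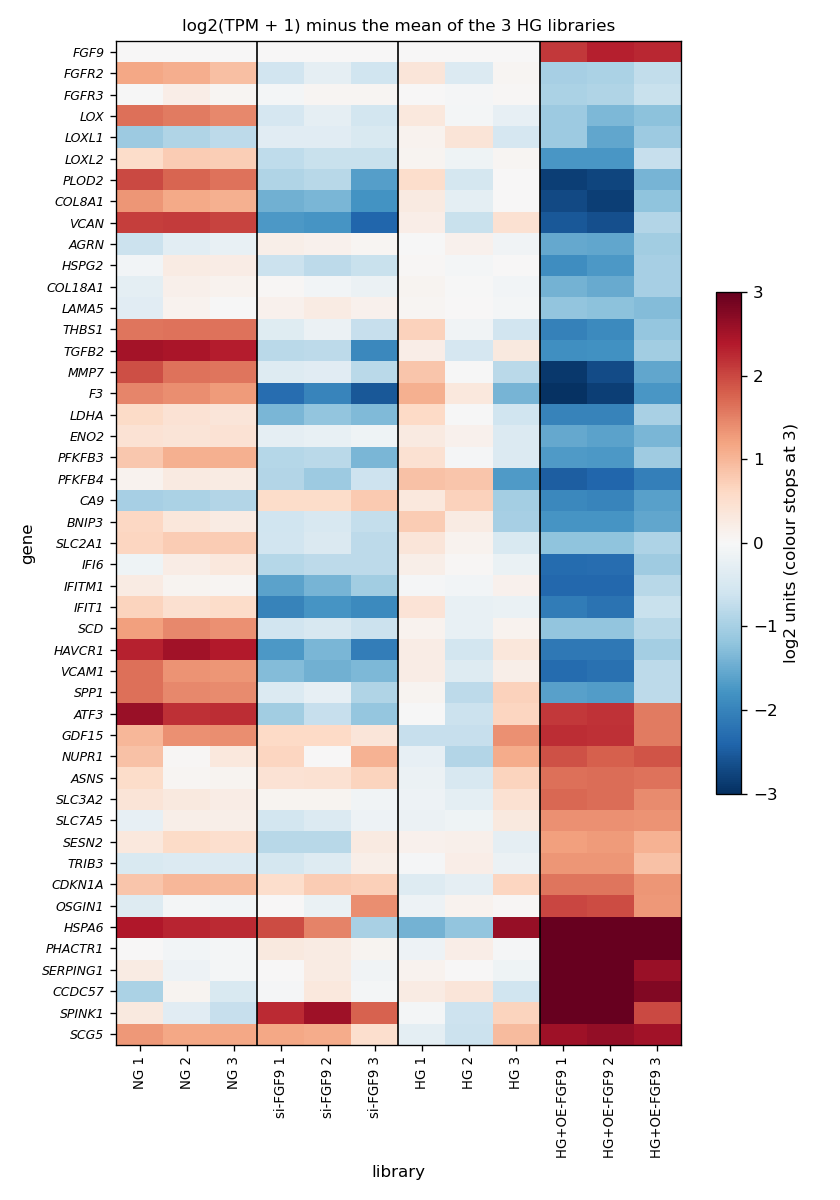
Level of named genes (rows) in 12 libraries (columns, 3 per group) as log2(TPM + 1) minus the mean of the 3 HG libraries, red above and blue below, with colour ending at 3. HG+OE-FGF9 replicates 1 and 2 are almost identical columns, and replicate 3 shows the same colours more faintly in most rows.

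Histone and small RNA genes stood apart. Of 31 tested replication-dependent histone genes 9 rose and 1 fell (median 0.38), and 13 rose without HG replicate 3, their products lacking the poly(A) tail of other mRNAs. Of those that rose, H4C11, H4C16, H4C3, H1-4, H2AC12, H2BC13 and H3C11 were under 1 TPM in every HG library. They were taken up through the FGF9 libraries alone, so these counts are a description only. Summed over all 65 listed members the groups overlapped, at 255, 222 and 653 TPM in HG and 345, 336 and 214 TPM with FGF9. H4C11 was listed at 0 in all HG libraries and at 27.4, 27.3 and 12.9 TPM with FGF9, and H4C12 was at 4.36, 7.09 and 3.73 TPM in HG and listed at 0 with FGF9. H4 genes are near-identical copies, so how reads were split between them is uncertain. Small nuclear and nucleolar RNAs took 0.0275%, 0.0296% and 0.0473% of all TPM in HG and 1.65%, 1.66% and 0.528% with FGF9, and replicate 3 was the lowest FGF9 library there too. A small RNA gene could be taken up through the FGF9 libraries alone, so no share of members that rose is given. RNU4-2, a U4 spliceosomal RNA, was listed at 0 in HG and at 1971, 1977 and 516 TPM with FGF9. A small RNA gene lay inside 11 of the 146 higher protein-coding genes (7.53%) and inside 12.7% of all protein-coding genes tested, and it touched an exon in 0 of the 146. Across genes, the difference rose with GC content (Spearman 0.295 over 12834 genes, which are not independent replicates), from a median of -0.39 in the lowest decile of GC content to 0.06 in the highest. With a GC correction the matrix list had 13 lower genes, the interferon list 12, glycolysis 5 and the stress response 8 higher, against 11, 9, 6 and 8 without it. The hypoxia list had 4 lower genes with the correction against 6 without it. Among the genes that no longer passed were BNIP3L (-0.83), EGLN1 (-0.95), PDK1 (-0.99), WWTR1 (-0.81), ITGB6 (-0.83) and BTC (-0.84). With median-of-ratios scaling the glycolysis and hypoxia lists had 4 lower genes each.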

How the data were processed

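Total RNA of HK2 cultures was sequenced by the authors, who deposited 1 table per library with a TPM value for each of 62703 Ensembl gene identifiers. The submitters' processing notes name Bowtie 0.12.2 and the mouse build mm8, although the identifiers are human; the quantification tool and annotation are not given in the sources used here. TPM hold no read counts, so depth is unknown, no counting interval can be given, and a value of 0 may be a failed estimate. A table of the whole series repeats the same values and was not used.

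Symbols and biotypes were matched by identifier, 58279 in GENCODE 29 and 62625 with a symbol in the name table. The 3 HG and 3 HG+OE-FGF9 libraries were fitted with limma 3.58.1 in R 4.3.3 (eBayes with a variance trend, group as the only term, 4 residual degrees of freedom before moderation) on log2(TPM + 1), for genes at 1 TPM or more in 3 or more of the 6. Genes with an absolute difference of 1 or more and an unadjusted p under 0.01, the rule the study used, were called differentially expressed, and Benjamini-Hochberg adjustment ran over all 13169 genes. The fit was tested on simulated data.

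The genes and gene lists were chosen with earlier results of these data known. Named were the genes the study names for this experiment, the 8 or fewer called genes with the largest difference in each list (or the 2 most abundant where fewer than 2 were called), and the 15 called protein-coding genes per direction with the largest difference, no overlap and a mean of 5 TPM or more in the higher group, histones left out; other genes named were chosen after their values were seen. Lists are described by counts and medians, and some of their members are not reported here. Motifs were searched in RefSeq promoters. Alternatives were another pseudocount (0.1), other filters, scalings, a GC correction, all 12 libraries in 1 fit, a replicate block, and leaving out each library.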

Additional observations from a re-analysis of the deposited data

How the results depend on the processing

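Counts depended on libraries and thresholds more than on scaling. Against 653 differentially expressed genes (395 higher, 258 lower; protein-coding 370, 146 and 224), an adjusted p under 0.05 left 242 (187, 55; protein-coding 101, 57 and 44), and at least 1 TPM in all 6 libraries left 340 (127 higher; protein-coding 78 higher). With all 12 libraries in 1 fit, lower genes came to 390 (protein-coding 343). Leaving out 1 library gave 378 to 1171 genes, 276 to 514 higher and 102 to 657 lower, and for protein-coding genes 163 to 782, 78 to 213 and 85 to 575. The lowest counts came without HG+OE-FGF9 replicate 1 (protein-coding 163), replicate 2 (165) or HG replicate 1 (180), and the highest without HG+OE-FGF9 replicate 3 (782) or HG replicate 2 (560). Without HG replicate 3 and HG+OE-FGF9 replicate 3 together, an alternative chosen after seeing the data, 1538 genes were called (708 higher, 830 lower; protein-coding 1045, 330 and 715). Median-of-ratios scaling gave 419 higher and 215 lower genes. Fewer samples or genes enter some of these fits, and otherwise the cause was not tested. The replicate numbers share only a number: deviations of same-numbered libraries correlated at -0.167, 0.275 and 0.204, and a replicate block gave 449 lower genes (protein-coding 390). No named gene past the threshold changed direction under any of the 18 alternatives, 58 of 101 stayed past it with each library left out, and 46 under every other alternative. Many named genes were chosen for large differences, some also for groups without overlap, so their stability is partly set by that choice. Of all 653 differentially expressed genes 327 stayed past the threshold with each library left out, and of the 370 protein-coding ones 136. The median of the histone list turned from 0.38 to -0.17 with at least 1 TPM in all 6 libraries. DESeq2 was not run, since there are no counts. Low TPM without depth limit what can be said of genes near 0.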

Other observations

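Of 531 tested antisense genes 55 were higher and 12 lower, and of 417 lincRNA genes 55 were higher and 6 lower. A gene of low level could be taken up through the FGF9 libraries alone, and with at least 1 TPM required in all 6 libraries the higher genes of every kind went from 395 to 127, so these counts are a description only. The abundant nuclear RNAs MALAT1 and NEAT1 were not among them: MALAT1 was at 76.7, 49.2 and 220 TPM in HG and at 70.6, 66.4 and 62.1 TPM with FGF9, and NEAT1 was at 178, 144 and 335 TPM and at 129, 131 and 251 TPM. Without strand information an antisense gene and its partner cannot be told apart.

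RN7SK and RPPH1, transcribed by RNA polymerase III and chosen after their values were seen, were both higher. RN7SK, which holds the elongation factor P-TEFb inactive, was at 24.0, 17.8 and 130 TPM in HG and at 4759, 4673 and 1462 TPM with FGF9 (limma adjusted p = 0.011). RPPH1, the RNA of ribonuclease P, went from 2.12, 2.55 and 1.69 TPM to 70.5, 58.8 and 18.2 TPM (limma adjusted p = 0.013). The mitochondrial ribosomal RNAs made up 0.554%, 0.581% and 3.17% of TPM in HG and 1.79%, 1.82% and 1.02% with FGF9, so that HG replicate 3 exceeded every FGF9 library.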
